A study of Mus musculus with 7 samples.

Results

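A feeder cell layer from mouse fetal liver was set against liver endothelial progenitor cells sorted by Sca1, gene by gene, on 6 of the 7 arrays of the series. The feeder layer is 1 array, and the sorted cells are 5: Sca1+ replicates 1 and 2 and Sca1- replicates 1 to 3. The remaining array, unsorted progenitor cells, is quoted beside them where it helps to read a value. Arrays were chosen by their titles, and the title of Sca1- replicate 1 leaves out the word progenitor. All carry fetal liver as their source and Mus musculus as their organism, and no strain, genotype, gestational age, passage or culture condition is used here beyond these labels. Nothing in the labels says how the feeder cells were isolated, whether they were irradiated or arrested, or whether any 2 arrays came from separate animals or cultures. Of 12393 genes measured on all arrays, the feeder value was at least 2-fold above all 5 sorted arrays for 229 and at least 2-fold below all 5 for 148.

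Feeder layers are adherent stromal cells on which other cells are grown, and they supply attachment, matrix and secreted factors. Stromal cells of this kind, when spread on a culture dish, often take on a myofibroblast state: they assemble bundles of smooth muscle actin and myosin, deposit collagen and secrete growth factors. In the fetal liver, which is the main site of blood formation at that stage, stromal cells lie among blood precursors, macrophages, hepatoblasts and sinusoidal endothelium.

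Values are scaled signals, with each array brought to a trimmed mean of 500, and log2 values have a floor of 64. A gene lies apart only where the feeder value falls outside the range of all 5 sorted arrays. Its margin is the log2 distance from the feeder value to the nearest sorted array, so a margin of 1 is 2-fold. The difference is the distance from the feeder value to the mean of the means of both fractions, and it is larger because the sorted arrays spread widely. With 1 feeder array, deposited in a table of its own under another array platform, there is no replicate and no test, and the number of arrays limits the precision. The platform, the deposit and the cell layer cannot be told apart.

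Several control readings were alike on the feeder and unsorted arrays and differed from those of the 5 sorted arrays. For Actb, the signal at the 3' end divided by that at the 5' end, a measure of how complete the labelled transcripts are, was 1.03 on the feeder array and 1.01 on the unsorted array, against 1.87 to 13.5 on the sorted arrays. It was highest, at 6.83 and 13.5, on Sca1+ replicate 1 and Sca1- replicate 1, the sorted arrays whose titles carry no sample number. Ribosomal 18S probe sets read 4.40 to 10.4 on the feeder array, 23.0 to 125 on the unsorted array and 171 to 1481 on the sorted arrays, so by this reading the unsorted array lay between them. The median of 18 bacterial and phage control probe sets was 736 on the feeder array, 756 on the unsorted array and 2862 to 9811 on the sorted arrays. The highest signal on the array was 21352 for the feeder cells and 45419 to 111744 for the sorted cells. Their part in the differences described here was not tested. Pearson's r of the feeder array, taken across all 12393 genes (genes do not stand for replicates), was 0.96 with Sca1+ replicate 2, 0.92 with Sca1- replicates 2 and 3, 0.85 with Sca1+ replicate 1 and 0.75 with Sca1- replicate 1.

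**Figure D1:**
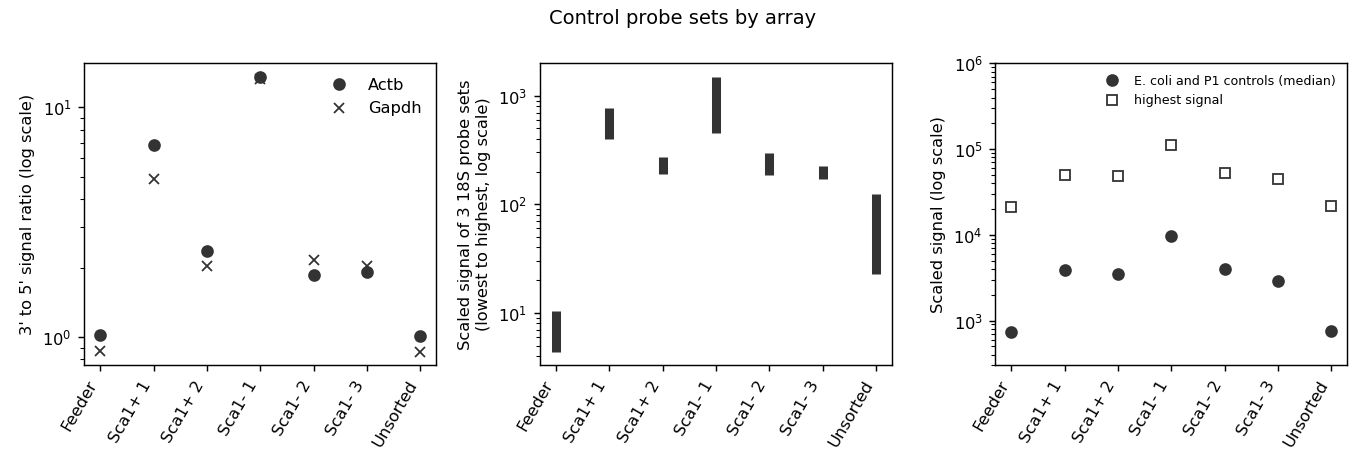
Control readings on each of the 7 arrays: the 3' to 5' signal ratio of Actb and Gapdh (left), the lowest to highest signal of 3 probe sets for 18S ribosomal RNA (middle), and the median of the bacterial and phage controls with the highest signal of the array (right), all on log axes. The feeder and unsorted arrays have Actb ratios of 1.03 and 1.01, below the 1.87 to 13.5 of the sorted arrays.

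Sca1+ replicate 2 set the margin for most of the genes that lay apart. It was the nearest sorted array for 144 of the 229 genes above and 77 of the 148 below, and without it the counts were 588 and 331. The feeder value was above all 5 sorted arrays by any distance for 2493 genes (20.1% of those measured) and below for 1611 (13.0%). The 2-fold counts are 1.85% and 1.19%. These 4 shares are the background for the gene lists and gene families below that are set against all 5 sorted arrays. Among 8073 genes with a mean signal above 100 the shares were 25.2% above and 19.5% below, or 2.13% and 1.83% by 2-fold. Without Sca1+ replicate 2 the 2-fold shares of all measured genes were 4.74% above and 2.67% below, the background for 2-fold counts without it. Shares by any distance were not counted with arrays left out. At the 2-fold line, Gask1b was just inside on the upper side (1185 against at most 592) and Tnfrsf23 just outside (259.5 against 130.1). On the lower side Ndufb7 was just inside (2785 against at least 5571) and Lasp1 just outside (1797 against 3592). The balance between the sides depended on the scaling: 60.7% of the 2-fold calls lay above with the trimmed mean, 47.0% after quantile normalization and 28.8% after median scaling, which shifted the median of all genes by -0.15. Many genes are read by several probe sets: of 104 such genes among the 229 above, all probe sets were 2-fold above for 27, and of 74 among the 148 below, all were 2-fold below for 4.

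Most genes of the contractile apparatus lay above the sorted cells. Of 28 smooth muscle and myofibroblast genes measured, 21 lay above all 5 sorted arrays, 10 of them by at least 2-fold, 1 lay below and 6 were within the range. Their median difference was 1.91, where all measured genes had 0.00. In bulk samples more (or fewer) cells of a type and more (or less) of their RNA per cell cannot be told apart, which holds for every cell type marker here. Cnn1, which encodes the actin-binding protein calponin 1, read 1635 on the feeder array against 25.2 and 302 with Sca1+ cells and 65, 157 and 161 with Sca1- cells. It was 5.41-fold above the nearest sorted array, a margin of 2.44, and the sorted arrays themselves ran from 25.2 to 302. Actg2, the smooth muscle gamma-actin of gut and other visceral muscle, had signals of 3700.4 in the feeder layer, 118 and 923 in Sca1+ cells and 192, 271 and 416 in Sca1- cells, a margin of 2.00. Among the sorted arrays Sca1+ replicate 2 was the nearest, and the unsorted array read 1037. Actg2 is nearly identical in protein sequence to Acta2, and whether its probes also read Acta2 was not tested. Acta2 itself, the alpha-actin that defines myofibroblasts, was abundant throughout, with signals of 12612 for the feeder cells, while the Sca1+ replicates had 2267 and 10739.5 and the Sca1- replicates 10111, 6448 and 5022, a margin of 0.23.

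Motor proteins and their regulators were also highest on the feeder array. Myl9, the regulatory light chain of smooth muscle myosin, had a signal of 2859 on the feeder array against 9.2 and 783 with Sca1+ cells and 69.4, 209.5 and 225 with Sca1- cells. The feeder value stood clear of all the sorted arrays, with a margin of 1.87, and the unsorted array lay in between at 1196. Mylk, the kinase that phosphorylates this light chain, read 1708 in the feeder layer, 167 and 616 in Sca1+ cells and 120.3, 353 and 252 in Sca1- cells, and all 3 of its probe sets were at least 2-fold above the sorted arrays. Myh11, the smooth muscle myosin heavy chain, was low everywhere but highest on the feeder array, at 289 against at most 71 on a sorted array, and this held by 2-fold for 1 of its 2 probe sets. Des, which encodes the intermediate filament desmin, had 1700 for the feeder cells, while the Sca1+ replicates had 9.6 and 425 and the Sca1- replicates 42.4, 236 and 233. The unsorted array was at 79.2, so that desmin stood out against that array as well, although the second Des probe set was not 2-fold above the sorted range. Lmod1, which starts actin filaments in smooth muscle, read 262 against at most 66.2.

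Filament-binding proteins completed the block. Tagln (transgelin, margin 1.15), Tpm1 (tropomyosin 1, 1.18, in 3 of 3 probe sets) and Csrp1 (a LIM protein of smooth muscle, 1.29, in 2 of 2) were the other members beyond 2-fold. Csrp1 had signals of 3529 on the feeder array against 85 and 1447 with Sca1+ cells and 21.4, 607 and 623 with Sca1- cells, the feeder array being highest. More broadly expressed cytoskeletal genes lay inside or at the edge of the sorted range. Vim read 17205 on the feeder array against 8576 to 17107, Flna 3923 against 2409.6 to 10159.7, and Cnn2, a calponin also found in blood cells, 2742 against 2545 to 21092. The transcription factor gene Srf, which drives many contractile genes, was at 609, just below the sorted range of 637 to 823, and its cofactor Myocd was under the floor on all 6 arrays. Skeletal and cardiac muscle genes stayed in the sorted range for 8 of 8 members. Leaving out Sca1+ replicate 2 gave 15 contractile genes beyond 2-fold, and after median scaling 8. By any distance 15 contractile genes lay above after median scaling and 23 after quantile normalization.

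Serum response factor binds a sequence known as the CArG box, and promoters of contractile genes were searched for it on both strands in RefSeq windows of 300 bases on GRCm38.p6, from 250 bases before to 50 bases after the gene's start. Windows were found for 23 of the 28 genes, and 4 held the box (Myl9, Vcl, Cnn2 and Srf), while 1.63% of all 32851 windows did. A gene was counted if any of its windows held the box, so a count of genes stands beside a share of windows. Cnn1, Des, Lmod1 and Mylk had no such match in these windows. The promoters of both genes with the box that lay above the sorted arrays are shown with the box in capitals. That of Myl9 (chr2:156775214-156775513, plus strand) has its box starting 161 bases before the start, and that of Vcl, which encodes the adhesion plaque protein vinculin (chr14:20929148-20929447, plus strand), 227 bases before. Vcl had a margin of 0.16, and the letters found are a description, not a shown binding site.
Myl9 promoter: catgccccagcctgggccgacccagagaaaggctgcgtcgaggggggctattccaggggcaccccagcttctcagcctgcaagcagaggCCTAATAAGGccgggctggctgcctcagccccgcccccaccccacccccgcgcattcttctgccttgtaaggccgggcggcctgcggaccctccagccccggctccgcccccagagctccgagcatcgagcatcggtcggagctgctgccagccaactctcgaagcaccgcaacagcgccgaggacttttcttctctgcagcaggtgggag
Vcl promoter: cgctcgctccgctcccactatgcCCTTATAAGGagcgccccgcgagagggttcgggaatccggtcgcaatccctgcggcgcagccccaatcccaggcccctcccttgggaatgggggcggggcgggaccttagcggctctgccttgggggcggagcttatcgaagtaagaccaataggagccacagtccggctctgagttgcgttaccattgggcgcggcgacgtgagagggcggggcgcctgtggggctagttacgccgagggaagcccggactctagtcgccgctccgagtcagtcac

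**Figure D2:**
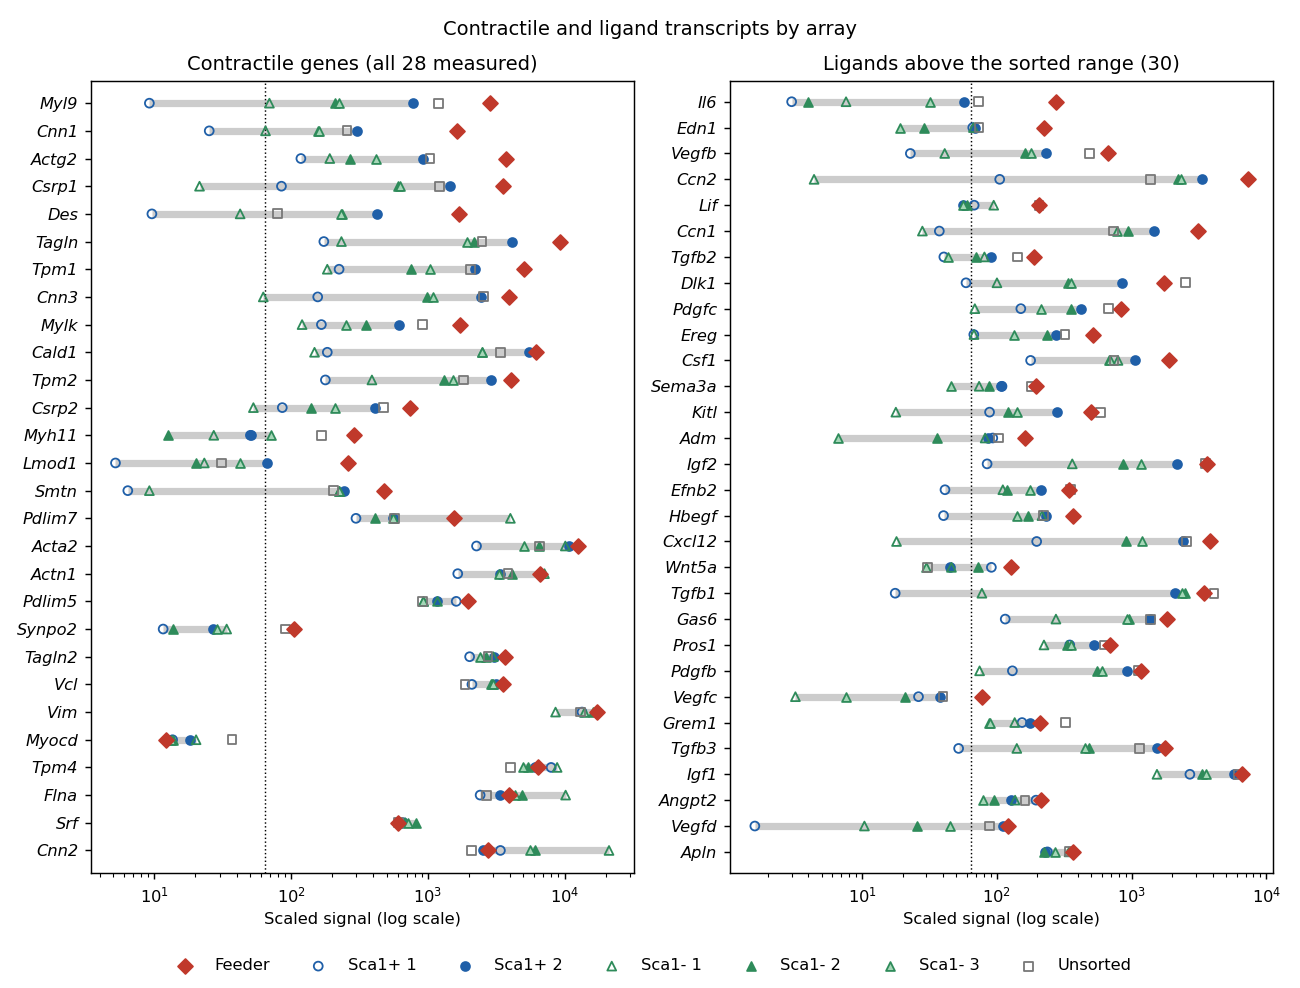
Scaled signal on each array (log axis) for all 28 contractile genes measured, ordered by difference (left), and for the 30 ligand genes above the sorted range, ordered by margin (right). Diamonds are the feeder array, circles Sca1+, triangles Sca1-, squares the unsorted array, grey bars the range of the 5 sorted arrays and the dotted line the floor of 64. Myl9, Cnn1, Actg2 and Des lie clear to the right of their grey bars, while Vim, Flna and Cnn2 lie on or inside theirs.

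Genes regulated by YAP, a transcriptional coactivator that responds to cell spreading and tension, were also mostly above the sorted arrays. Of 16 measured, 11 lay above all the sorted arrays, 7 of them by 2-fold, and 0 lay below. Tm4sf1, a small surface membrane protein, read 674 in the feeder layer, 7.8 and 127 in Sca1+ cells and 15.4, 14 and 4.8 in Sca1- cells. Crim1, a transmembrane protein that binds BMPs, had 666 for the feeder cells, while the Sca1+ replicates had 7.8 and 79.6 and the Sca1- replicates 9.8, 127 and 50.8. Both were under the floor on most sorted arrays, and for each only 1 of 2 probe sets was beyond 2-fold. With a higher floor, which picked the other probe set, the margin of Tm4sf1 was 0.00. The matricellular genes Ccn2 (7342 against at most 3322) and Ccn1 (3126 against at most 1468), the muscle ankyrin gene Ankrd1 (1209 against 376), Amotl2 (1137 against 359.9), a regulator of YAP, and the receptor gene Axl (3948 against 1742) were the others. Ccn1, Ccn2 and Axl belong also to the ligand or receptor lists. Yap1 itself, in no list and named after its values were seen, was at 1697 against 121 to 657, a margin of 1.37. After median scaling 5 members of the list were beyond 2-fold.

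Growth arrest genes were mixed. Gas1, a surface protein first found in cells leaving the cycle, had signals of 3223 on the feeder array against 14.8 and 1478 with Sca1+ cells and 7.2, 426 and 516 with Sca1- cells, a margin of 1.13. The feeder array was highest and the sorted arrays without a sample number were under the floor. Only 1 of 3 probe sets was beyond 2-fold, and the mean of the probe sets had a margin of 0.67. Cdkn1c, which encodes the cell cycle inhibitor p57, read 309 in the feeder layer, 15.2 and 71.4 in Sca1+ cells and 6.6, 58.8 and 38.6 in Sca1- cells, so that the feeder array alone of these 6 stood well above the floor. Of the 21 genes of this list, 10 lay above and 2 below (4 without Sca1+ replicate 1), namely Trp53inp1 (-0.81) and Ccnd3 (-0.13). The inhibitor gene Cdkn1a was within the range at 5099. There were 4 members 2-fold above without Sca1+ replicate 2, and 1 after median scaling. All 28 genes of G2 and M phase lay within the range of the 5 sorted arrays, which covers both fractions, among them Mki67 at 1242 against 877 to 3911 and Top2a at 1138 against 723 to 1867. Against only the Sca1+ arrays 21 of the 28 lay above and 0 below, and against only the Sca1- arrays 2 lay above and 10 below. Without Sca1- replicate 3 there were 4 above, without Sca1+ replicate 2 there were 3 below, and after median scaling 2 below. Ranges of fewer arrays are narrower, and the share of all genes outside them by any distance was not counted. By 2-fold, 3.09% of all genes lay above and 2.17% below the Sca1+ arrays, and 5.42% and 3.57% the Sca1- arrays. Whether the G2 and M phase genes differ from all genes in these ranges was therefore not tested. Of 24 replication genes 18 were within the range of all 5, 3 below it (5 without either Sca1+ replicate 2 or Sca1- replicate 1), and Pcna, the sliding clamp of DNA polymerase, was above it at 10866 against at most 6075.

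Among mesenchymal transcription factors, 11 of 21 lay above the sorted arrays and 0 below. Tcf21, a factor of fibroblast and stellate precursors, read 276 for the feeder cells, while the Sca1+ replicates had 47.4 and 76.6 and the Sca1- replicates 49, 19.2 and 45. Osr1 (198 against at most 50.4, all 5 sorted arrays under the floor) and Gata6 (769.9 against at most 381, both probe sets) also exceeded 2-fold. The unsorted array was close to the feeder array for these genes, at 248, 181 and 788. Its highest background control read 170, however, so its Osr1 value was near background and its Tcf21 value not far above. Of 13 pericyte and stellate cell genes, 4 lay above, none by 2-fold: Cspg4 (0.92), Notch3 (0.69), Rgs5 (0.51) and Mcam (0.36). The stellate markers Lrat and Reln read 17.8 and 91 on the feeder array and were within the sorted range, as was Hand2 at 118. Leaving out Sca1+ replicate 2 raised the 2-fold counts to 10 of the transcription factors and 4 of the pericyte and stellate genes, 7 of which then lay above by any distance.

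Matrix genes were abundant on the feeder array but also on the sorted arrays that carry a sample number. The list's median difference was 2.23, or 1.25 without Sca1+ replicate 1. Of 37 members, 22 lay above the sorted range but only 3 by 2-fold. By any distance 14 lay above after median scaling, 27 after quantile normalization and 33 without Sca1+ replicate 2. Col1a1, a chain of the main fibrillar collagen, had signals of 16207 on the feeder array against 79.4 and 20565 with Sca1+ cells and 32.6, 8319 and 8775 with Sca1- cells. Here the feeder value was under that of Sca1+ replicate 2, and so it was for Col1a2, Col3a1, Sparc, Bgn and Col5a2. The 3 list members beyond 2-fold encode proteins of elastic fibres and of collagen crosslinking. Col11a1, outside the list and named after its values were seen, was also 2-fold above (1252 against at most 453, 2 of 2 probe sets). Fbln5, which guides elastic fibre assembly, had 563 in the feeder layer, 50.8 and 155 in Sca1+ cells and 96.5, 70.6 and 65.4 in Sca1- cells. Lox, the enzyme that crosslinks collagen and elastin, read 4264 for the feeder cells, while the Sca1+ replicates had 66.6 and 1819.9 and the Sca1- replicates 19, 983 and 1032, in 2 of 3 probe sets, and Mfap5, a microfibril protein, 384 against at most 127. Elastin itself was at 329.7, within the range. As many as 23 matrix genes lay 2-fold above without Sca1+ replicate 2, where 4.74% of all measured genes did. The count was 5 without Sca1- replicate 1 and 5 after quantile normalization.

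Of 15 basement membrane genes on the list 7 lay above and 0 beyond 2-fold, with Col4a2 (0.72) and Nid1 (0.72) highest. Col4a5, a collagen IV chain outside the list, was 2-fold above, at 1208 against at most 437 (2 of 2 probe sets). Of 36 collagen genes taken by family name after values were seen, 7 lay above and 1 below. Those 2-fold above were 3: Col8a1, Col4a5 and Col11a1. Over all measured genes 20.1% lay above and 1.85% by 2-fold. Matrix proteases and inhibitors had 8 of 17 above and 3 beyond 2-fold. Plau, the urokinase that activates plasminogen, read 4513 on the feeder array against 559 and 1208 with Sca1+ cells and 461, 1271 and 1409.6 with Sca1- cells, in 2 of 2 probe sets. Timp3, an inhibitor that stays bound to matrix, had 2129 against at most 784 (3 of 4 probe sets), and the aggrecanase gene Adamts1 1326 against at most 596. The macrophage elastase gene Mmp12, outside the lists, had the second largest margin above, 2.50, with signals of 6747 in the feeder layer, 567 and 1024 in Sca1+ cells and 139, 1191 and 1032 in Sca1- cells, and 3992 on the unsorted array. Of 17 adhesion genes 10 lay above, and only Cdh2, which encodes N-cadherin, was beyond 2-fold, at 1187 against at most 539. When Sca1+ replicate 2 was left out, 6 protease, 6 adhesion and 6 basement membrane genes lay beyond it, and 13 protease and 12 basement membrane genes lay above by any distance. Over all measured genes 4.74% then lay 2-fold above.

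Ligand genes, the factors through which a feeder layer could act on cells grown on it, lay above the sorted arrays for 30 of 50 members, 8 of them by 2-fold, and 1 lay below. Il6, the cytokine, read 275 for the feeder cells, while the Sca1+ replicates had 3.0 and 57 and the Sca1- replicates 7.6, 4.0 and 31.8: every sorted array was under the floor, so its margin of 2.10 is a lower bound. Edn1, the vasoconstrictor endothelin 1, had 223 on the feeder array against 66.2 and 69 with Sca1+ cells and 67, 28.8 and 19 with Sca1- cells, a margin of 1.69. Vegfb, of the VEGF family, had 664 in the feeder layer, 22.8 and 232 in Sca1+ cells and 41, 161 and 179 in Sca1- cells, with a margin of 1.52. The remaining 5 were Ccn2, Lif (1.11), Ccn1, Tgfb2 (1.06) and Dlk1 (1.02), a Notch-like surface ligand of hepatoblasts and stroma whose signal was higher still on the unsorted array, at 2511. The 2-fold count was 18 without Sca1+ replicate 2 and 3 after median scaling, where 4.74% and 0.96% of all measured genes lay 2-fold above.

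Ligands of the classic angiogenic families were otherwise low or shared. Vegfa read 642 for the feeder cells, while the Sca1+ replicates had 195 and 844 and the Sca1- replicates 56.8, 408 and 576, within the sorted range. Angpt1 and Pgf were under the floor on all 6 arrays, and Angpt2 read 214 against 78.8 to 195. Fgf1, Fgf2, Fgf7 and Fgf10 were at 59.6, 36, 85.2 and 57.2 on the feeder array, all within the range, and Hgf was at 90.6. Factors known to maintain blood cells were above it by less than 2-fold: Kitl, the ligand of Kit (497 against at most 279), Cxcl12, which holds stem cells in their niche (3805 against 2417), Csf1, the macrophage growth factor (1885 against 1055), and Igf2 (3651 against 2181). Igf1 was abundant on all arrays, at 6535 on the feeder array and up to 5731 on the sorted ones.

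Receptors for these ligands lay above for 16 of 42 and below for 4. Axl, which binds Gas6, read 3948 on the feeder array against 331 and 1742 with Sca1+ cells and 109, 816 and 819 with Sca1- cells, the feeder array being highest. Notch2 was the member beyond 2-fold below: 911 in the feeder layer, 1950.2 and 1907 in Sca1+ cells and 8515, 2618 and 2291 in Sca1- cells, in 1 of 2 probe sets. Csf1r, the receptor of Csf1 on macrophages, was at 10050 against 18499 to 35387, below the range although its signal was high on all arrays. The VEGF receptor gene Kdr was within it at 255, and Tek, the angiopoietin receptor, was under the floor on all 6 arrays. Among TGF-beta and BMP response genes 8 of 13 lay above, Ltbp1 by 2-fold (1.03), while Tgfbi, a matrix protein also made by macrophages, was below at 1712 against 3865 to 7352 (3 of 4 probe sets). Of 7 IGF-binding protein genes 3 lay above, none by 2-fold, with Igfbp7 at 8526 against at most 6709. Leaving out Sca1+ replicate 2 gave 6 receptors and 6 response genes 2-fold above, 2 receptors 2-fold below and 2 binding proteins 2-fold above. By any distance 5 binding proteins lay above without that array or without Sca1- replicate 1. Without Sca1- replicate 3 there were also 2 receptors below, and after median scaling 3.

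Chemokines and inflammatory mediators lay above for 12 of 26, 5 of them by 2-fold. Cxcl1, a chemokine that draws neutrophils, had the largest margin above of any gene, 2.59, with signals of 2495 for the feeder cells, while the Sca1+ replicates had 169 and 413 and the Sca1- replicates 23.6, 268 and 216. The unsorted array was at 306, inside the sorted range. Ccl2, which draws monocytes, read 3222 on the feeder array against 488 and 882 with Sca1+ cells and 166, 935 and 907 with Sca1- cells, and Ccl4 3908 in the feeder layer, 836 and 1596 in Sca1+ cells and 290.4, 1674 and 1349 in Sca1- cells. Ptgs2, the inducible cyclooxygenase, was at 627 against at most 294, in both probe sets, and Il6 is described above. Saa3, an acute phase protein, was lower, with 984 for the feeder cells, while the Sca1+ replicates had 16018 and 3429 and the Sca1- replicates 3661, 9325 and 8731. Feeder and unsorted arrays were the lowest of the 7 for Saa3. Cxcl10, which interferon induces, was under the floor on the feeder array and within the range. After median scaling 3 members were 2-fold above.

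Neutrophil precursor genes lay low on the feeder array, with a large spread among the sorted arrays. Mpo, the myeloperoxidase of primary granules, read 88.6 on the feeder array against 6101 and 167 with Sca1+ cells and 19588, 14278 and 13593 with Sca1- cells. The feeder value was the lowest of the 6, but its margin of -0.92 is set by Sca1+ replicate 2. Without that array the margin of Mpo was -6.11. Prtn3, a granule serine protease, had 74.6 in the feeder layer, 4653 and 180.3 in Sca1+ cells and 11344, 8016 and 8020 in Sca1- cells, a margin of -1.27. Of the 5 primary granule genes 3 lay below and 0 above, and Elane and Ctsg were under the floor on both the feeder array and Sca1+ replicate 2. The later granule genes had 10 of 18 below, 3 by 2-fold, and 1 above, with a median difference of -3.99. S100a8, which forms calprotectin together with S100a9, read 983 for the feeder cells, while the Sca1+ replicates had 38249 and 3219 and the Sca1- replicates 102497, 50055 and 45419. S100a9 was at 1247 against at least 2635, and the protease inhibitor gene Stfa3 at 118 against at least 273. Without Sca1+ replicate 2, 14 of these genes and 4 of the primary granule genes lay 2-fold below, and 16 and 5 by any distance. The summed signal of the later granule list was 10886 on the feeder array and 12022 to 733314 on the sorted arrays, of which Sca1+ replicate 2 was lowest.

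Leukocyte transcripts were lower but not absent. Ptprc, which encodes CD45, read 3302 on the feeder array against 10505 and 4777 with Sca1+ cells and 13668, 7586 and 6501 with Sca1- cells, the feeder array being lowest. Of 16 pan-leukocyte genes 11 lay below, 3 by 2-fold, and 2 lay above. Vav1, a signalling protein of blood cells, had 252 in the feeder layer, 1358 and 816 in Sca1+ cells and 1505, 933 and 920.4 in Sca1- cells, and Inpp5d, a lipid phosphatase, 1038 against at least 2272 in 1 of 2 probe sets. Laptm5, a lysosomal protein of blood cells, read 3079.6 for the feeder cells, while the Sca1+ replicates had 18222 and 11941 and the Sca1- replicates 37279, 12852 and 12723, but only 1 of its 3 probe sets was 2-fold below, and for the mean of the probe sets the margin of Laptm5 was -0.25. If Sca1+ replicate 2 was left out, 5 pan-leukocyte genes lay 2-fold below. Macrophage genes had high signals on the feeder array: Lyz2 at 14698 (sorted arrays at least 24437), Ctss at 12569 (at least 21240), Csf1r at 10050 (at least 18499) and C1qa at 6983. Of 25 macrophage genes 14 lay within the sorted range, 8 below and 3 above, none by 2-fold. The macrophage surface marker Adgre1 was at 4914 against 1812 to 16333. The feeder array thus carried macrophage transcripts, with Lyz2, Ctss and Csf1r below all 5 sorted arrays. Of the 14 members within the range, 2 were under the floor on all 6 arrays. The summed signal of this list was 125329 on the feeder array, 127917 on the unsorted array and 165667 to 284749 on the sorted arrays, and 22 of 25 members exceeded 100 on the feeder array. After median scaling 4 macrophage genes lay 2-fold below, and without Sca1+ replicate 2 there were 5 above. The lower reading of this list depended on the processing. Its median difference was -0.36, but 0.00 after quantile normalization, with 5 genes above and 4 below. With the mean of the probe sets it was -0.07, with 3 above and 6 below. Megakaryocyte genes lay below for 5 of 7 (Pf4 4231 against at least 7413) and class II genes for 3 of 6 (Cd74 161 against at least 291), none by 2-fold.

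Interferon-stimulated genes mostly lay below the sorted cells. Of 16 interferon-stimulated and class I presentation genes, 13 lay below all 5 sorted arrays, 7 of them by 2-fold, 3 were within the range and 0 lay above. Rsad2, which encodes the antiviral protein viperin, read 1452 on the feeder array against 10163 and 9494 with Sca1+ cells and 16535, 9026 and 8804 with Sca1- cells, a margin of -2.60, in 2 of 3 probe sets. The 5 sorted arrays lay close together, and the feeder array was 6.06-fold below the nearest. Ifit3, of a family of antiviral proteins, had 719.6 in the feeder layer, 4690.3 and 3914 in Sca1+ cells and 6300.2, 2754 and 2845 in Sca1- cells. Ifit1, which binds viral RNA, had 813 for the feeder cells, while the Sca1+ replicates had 3593 and 3070 and the Sca1- replicates 5058, 3054 and 3109. Both were lowest on the feeder array, with margins of -1.94 and -1.91. Mx1, an antiviral GTPase, read 192 on the feeder array against 2392 and 1321 with Sca1+ cells and 714, 1295 and 1145 with Sca1- cells, and Usp18, which damps interferon signalling, 727 in the feeder layer, 3279.8 and 2891 in Sca1+ cells and 4051, 2754 and 2588 in Sca1- cells. In both the feeder array was lowest.

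The transcription factor gene Irf7, which amplifies the interferon response, was at 1756 against 3947 to 5556. Tap1, the peptide transporter for class I loading, was at 412 against 1122 to 2154, in 1 of 4 probe sets. Class I chains differed less: B2m read 8606 against 12701 to 22510, and H2-K1 was within the range at 11016. Without Sca1+ replicate 2, 7 genes lay 2-fold below, as with it. The count was 6 when probe sets were averaged and 8 after median scaling or without Sca1- replicate 1. It was 11 against only the sorted arrays without a sample number and 9 against only those with one.

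The unsorted array read close to the feeder array for these genes, with 1659 for Rsad2, 846 for Ifit3, 771 for Ifit1, 936 for Usp18 and 2292 for Irf7. The summed signals of the macrophage and pan-leukocyte lists were also lower on both arrays. For the pan-leukocyte list the sum was 46221 on the feeder array, 53616 on the unsorted array and 60988 to 221259 on the sorted arrays. Medians did not separate them in this way. The macrophage median log2 was 11.74 on the feeder array and 11.71 on the unsorted array, above the 11.39 of Sca1- replicate 1. The pan-leukocyte median was 11.64 and 11.85, against 11.64 on Sca1+ replicate 2. The part of these cells in the interferon result was not tested.

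Related genes, most of them outside the list, taken by family name after values were seen, were also below or within the sorted range. Of 5 Schlafen genes measured, several of which interferon induces in mouse blood cells, 4 lay 2-fold below. Slfn4 read 1847 for the feeder cells, while the Sca1+ replicates had 13080 and 12667 and the Sca1- replicates 28038, 15358 and 15802, with 1539 on the unsorted array, and Slfn2 2327 on the feeder array against 12189 and 9808 with Sca1+ cells and 27459.8, 11466 and 10929 with Sca1- cells. Slfn8 and Slfn1 had margins of -2.13 and -1.59, and Slfn3 was under the floor on all 6 arrays. The unsorted array read 3284 for Slfn2. It read 1366 for Slfn8 and 835 for Slfn1, where the feeder array read 622 and 285. The active enzymes of the oligoadenylate synthetase family trigger RNA decay on sensing double-stranded RNA. Of 9 genes of this family 6 lay below and 3 by 2-fold, led by Oas1a at 2471 against at least 7485. Of 4 immunity-related GTPases 3 lay below and 2 by 2-fold, Igtp (-1.46) and Irgm2 (-1.05), and of 6 guanylate-binding proteins, among them Gbp2 of the list, 3 and 1. Parp14, also interferon-inducible, was at 781 against at least 2896.

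Interferon-regulated promoters often carry the interferon-stimulated response element, whose core repeat is GAAANNGAAA. It was searched on both strands in the same RefSeq windows, a search chosen after the values were seen. It was present in 7 of the 14 list genes with a window (B2m, Bst2, Gbp2, Ifit1, Ifit3, Ifitm3 and Rsad2) and in 3.44% of all 32851 windows. Here too a gene was counted if any of its windows held the repeat, while the share is of windows. Of these 7, Bst2 and Gbp2 were within the sorted range. The promoters of the 3 genes with the largest margin below that hold it are shown with the repeat, here on the opposite strand, in capitals. Ifit1 (chr19:34640639-34640938, plus strand) holds 2 copies, starting 104 and 85 bases before the start. Ifit3 (chr19:34583279-34583578, plus strand) holds 2, at 156 and 122 bases, and Rsad2 (chr12:26456403-26456702, minus strand) holds 1, at 120 bases.
Rsad2 promoter: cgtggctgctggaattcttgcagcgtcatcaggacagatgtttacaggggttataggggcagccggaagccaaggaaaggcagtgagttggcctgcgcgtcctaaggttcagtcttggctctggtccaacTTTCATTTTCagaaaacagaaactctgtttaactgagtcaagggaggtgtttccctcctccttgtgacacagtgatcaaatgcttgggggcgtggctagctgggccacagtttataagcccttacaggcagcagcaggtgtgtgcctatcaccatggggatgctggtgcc
Ifit3 promoter: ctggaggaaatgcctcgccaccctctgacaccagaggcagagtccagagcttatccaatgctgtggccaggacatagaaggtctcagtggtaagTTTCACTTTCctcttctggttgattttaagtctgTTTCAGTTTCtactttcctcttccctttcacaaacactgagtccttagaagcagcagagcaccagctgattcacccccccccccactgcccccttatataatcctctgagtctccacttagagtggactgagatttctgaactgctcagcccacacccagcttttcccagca
Ifit1 promoter: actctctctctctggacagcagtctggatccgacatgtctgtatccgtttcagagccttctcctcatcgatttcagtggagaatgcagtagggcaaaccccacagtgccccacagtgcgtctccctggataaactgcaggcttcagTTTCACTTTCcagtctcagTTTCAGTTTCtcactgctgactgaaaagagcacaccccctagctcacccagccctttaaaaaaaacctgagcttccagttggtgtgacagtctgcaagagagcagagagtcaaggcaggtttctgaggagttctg

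**Figure D3:**
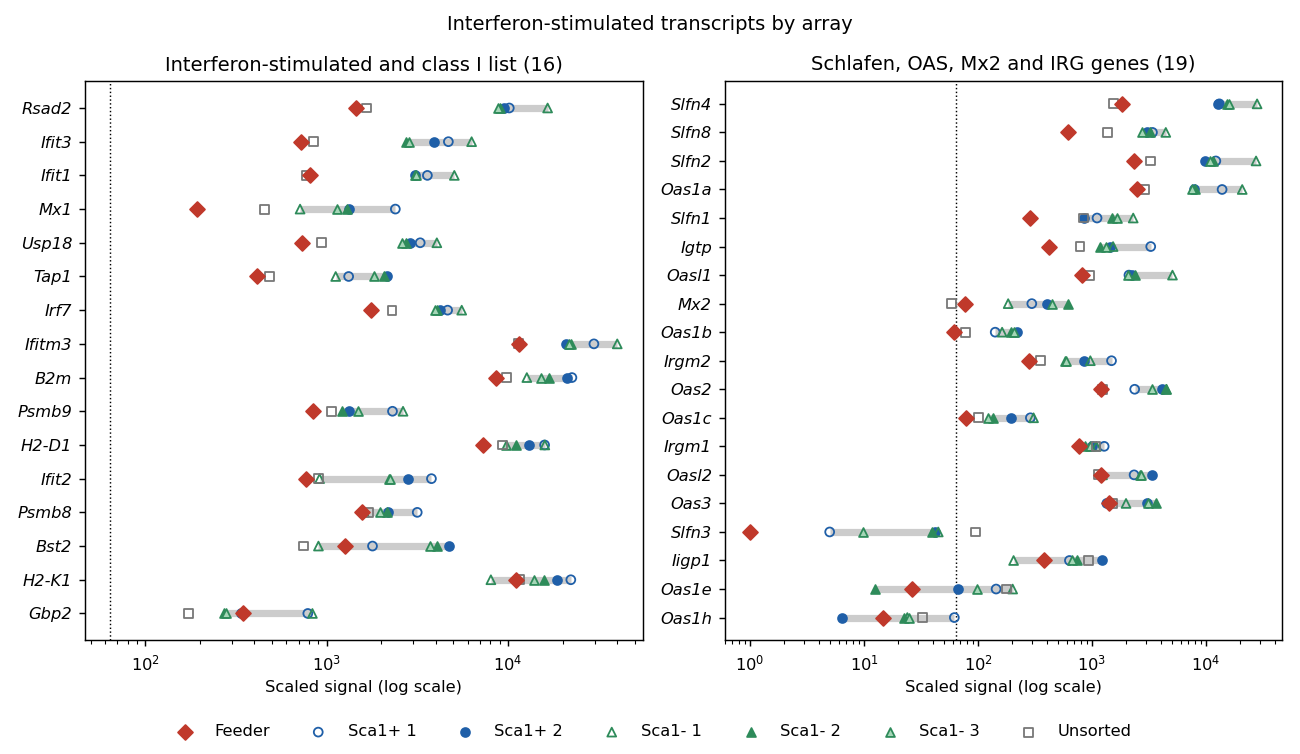
Scaled signal on each array (log axis) for the 16 genes of the interferon list (left) and 19 related genes taken by family name (right), each ordered by margin, with symbols as in the plot of contractile genes. The feeder array is left of the grey sorted range for 13 of the 16. The unsorted array often lies near it, as for Rsad2 at 1452 and 1659, but less so for Mx1 at 192 and 455.

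The remaining genes with the largest margins were of varied function. Above the sorted arrays were Lmcd1, a LIM domain protein (685 against at most 122), Prkch, a protein kinase C (645 against 146), Fgf13, an intracellular relative of the fibroblast growth factors (674 against 153, 1 of 2 probe sets), and Rian, a noncoding RNA of the imprinted Dlk1 region (1226 against 288, 2 of 3). So were Pik3ap1, a signalling adaptor (593 against 145), Col8a1, a short-chain collagen (585 against 146, 1 of 2), Cavin2, a caveola coat protein (767 against 200.3, 2 of 2), and Rbpms, an RNA-binding protein (777 against 209.5, 2 of 4). For Prkch and Pik3ap1 the unsorted array was nearly as high, at 624 and 547.

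Below the sorted arrays Ltb, the lymphotoxin beta chain, had the largest margin. It read 35.8 in the feeder layer, 526 and 518 in Sca1+ cells and 2207, 1619.5 and 1372 in Sca1- cells, so the feeder array was under the floor and the margin of -3.02 is a lower bound. Fpr2, a receptor for formyl peptides on phagocytes, had 353 for the feeder cells, while the Sca1+ replicates had 13305 and 1477 and the Sca1- replicates 42135, 7045 and 7041, and Cd300lf, an inhibitory receptor of myeloid cells, 401 on the feeder array against 2024 and 1504 with Sca1+ cells and 5282, 2937 and 2776 with Sca1- cells. Ms4a4c, a membrane protein of blood cells, was at 422 against at least 2435 in both probe sets. Twf2, an actin monomer-binding protein, was at 454 against 1676, in 1 of 2 probe sets. Rpl27a, a ribosomal protein gene, was at 235 against 904 in 1 of 2, and 181 on the unsorted array.

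**Figure D4:**
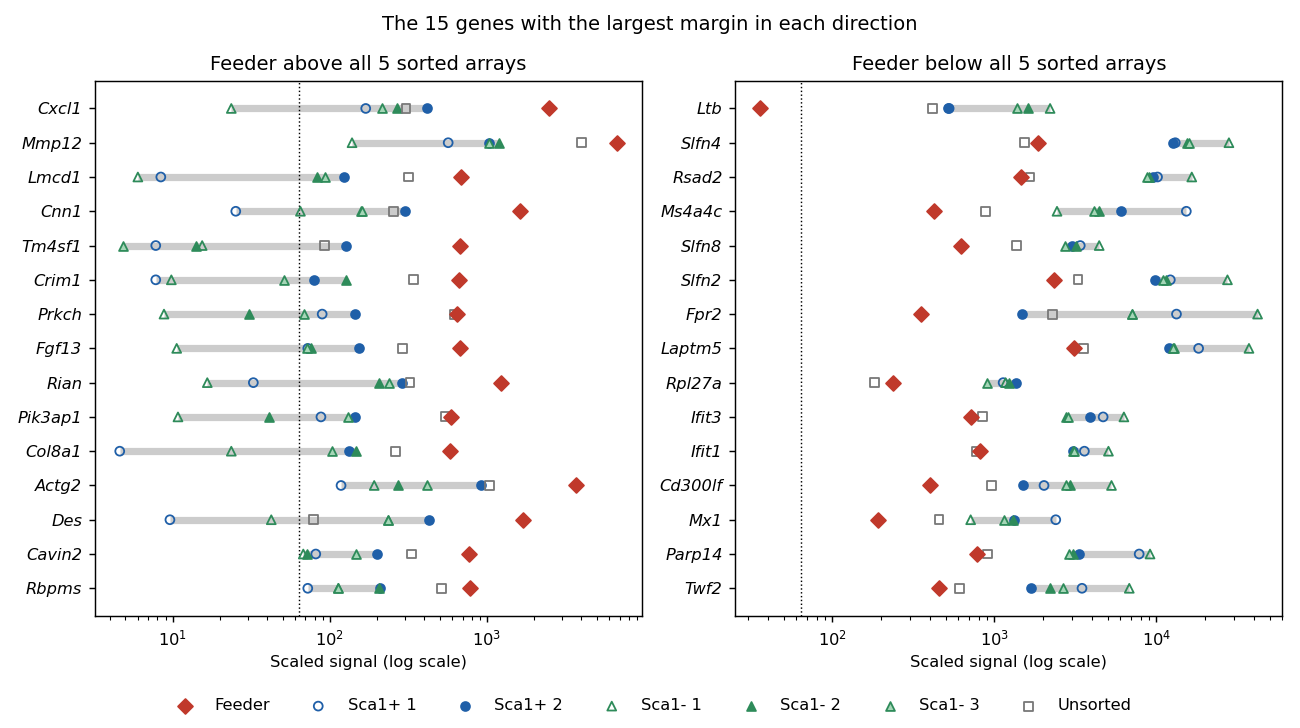
Scaled signal on each array (log axis) for the 15 genes with the largest margin above (left) and below (right) all 5 sorted arrays, with a grey bar over the sorted range and a dotted line at the floor of 64. By the rule that chose them, each red diamond lies outside its bar. On the left Sca1+ replicate 2 (filled circle) is often the nearest sorted array, as for Actg2 at 923 against 3700.4.

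Defining markers of endothelium and of hepatocytes were low on the feeder array, where the highest background control read 60.8. Of 23 pan-endothelial genes 20 were within the sorted range, 1 above and 2 below, with a median difference of 0.00. There were 5 above without Sca1+ replicate 2. Pecam1 read 124 in the feeder layer, 15 and 206 in Sca1+ cells and 23.2, 117 and 25.8 in Sca1- cells, and Cdh5, the endothelial cadherin, 101 for the feeder cells, while the Sca1+ replicates had 9.4 and 237 and the Sca1- replicates 115, 48 and 7.0. On the feeder array Tek, Tie1 and Erg were under the floor, and Eng, which stromal cells also express, was at 741. On the sorted arrays, labelled as endothelial progenitors, Pecam1 and Cdh5 were likewise low or under the floor. The summed signal of the list was 3232 on the feeder array and 1977 to 5125 on the sorted arrays. Sinusoidal genes were within the range for 6 of 9, and Cd36, which macrophages share, was above it at 7671 against at most 4396.

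Hepatocyte genes other than Dlk1 were low, with Alb at 102, Afp at 189 and Ttr at 30.8 on the feeder array, and 13 of 16 of the hepatoblast and hepatocyte list were within the range. Dlk1, on this list too, read 1728 and was 2-fold above. The summed signal of the list, Dlk1 included, was 2644 on the feeder array, 653 to 2578 on the sorted arrays and 5513 on the unsorted array. Epithelial genes lay above for 6 of 10. Epcam, a surface protein of hepatoblasts and biliary cells, read 391 on the feeder array against 103 and 7.6 with Sca1+ cells and 30.0, 81.2 and 4.2 with Sca1- cells, with 432 on the unsorted array, so both of these arrays were above every sorted one. Krt8 (0.43), Krt19 (0.47), Cldn3 (0.64) and Cldn7 (0.96, a lower bound) lay above by less than 2-fold. Mesothelial genes lay above for 4 of 7, with Alcam by 2-fold (1515 against at most 686) and Wt1 at 569.6 against at most 391, while Msln was at 33.2. Erythroid genes were within the range for 7 of 10, mast cell genes for 9 of 11, B-lineage genes for 5 of 9 and stem and progenitor genes for 9 of 13, and none of these lists had a member beyond 2-fold. Without Sca1+ replicate 2, 2 epithelial and 2 mesothelial genes were 2-fold above and 2 stem and progenitor genes 2-fold below. Stem and progenitor genes below by any distance were 2, or 4 without either Sca1+ replicate 1 or Sca1- replicate 1. The epithelial count was also 2 without Sca1- replicate 1, and the mesothelial count 2 without Sca1- replicate 3.

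Of 14 hypoxia and glycolysis genes 4 lay below, and Pgk1, a glycolytic kinase, was 2-fold below at 12219.7 against 24914 to 70593 in 1 of 3 probe sets. The count below was 7 without Sca1- replicate 1 and 10 after median scaling. Immediate early genes, which cell handling can induce, lay above for 6 of 15, none by 2-fold, with Nr4a1 highest (3466 against at most 1992). After quantile normalization, and also without Sca1+ replicate 2, 9 lay above and 1 by 2-fold. After median scaling 4 lay above and 1 below. Fos was within the range at 12883, and Egr1 at 9163.

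**Figure D5:**
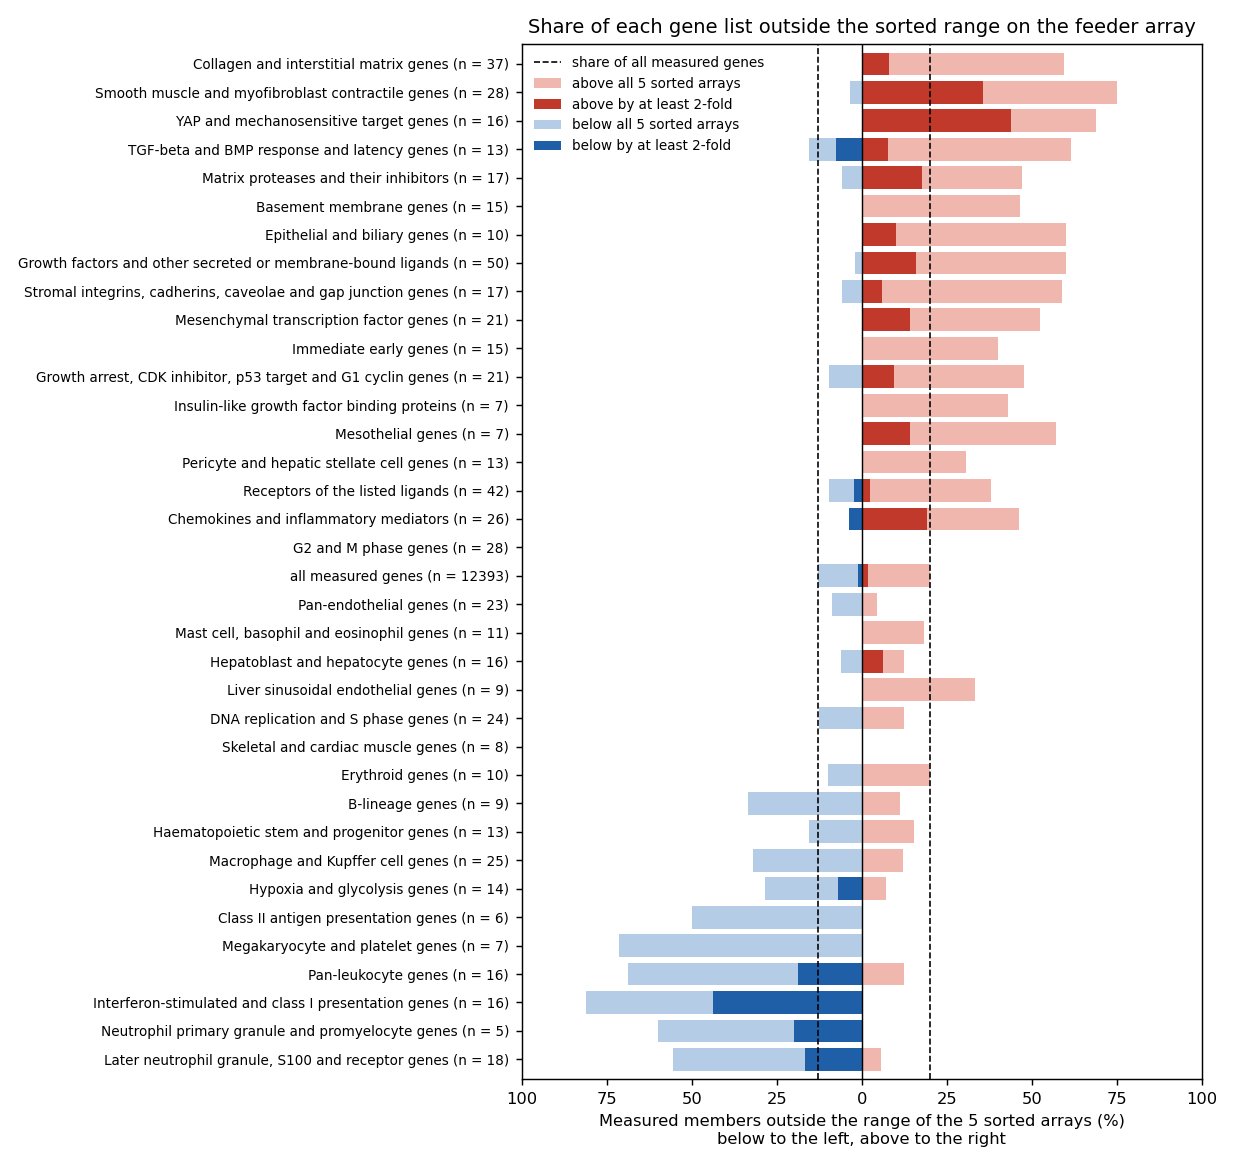
Share of the measured members of each gene list that lay above (right, red) or below (left, blue) all 5 sorted arrays on the feeder array, with the share beyond 2-fold in the darker shade and lists ordered by median difference. Dashed lines mark the shares over all measured genes, 20.1% above and 13.0% below. Contractile (21 of 28) and YAP target genes (11 of 16) reach far to the right, and interferon-stimulated genes (13 of 16) far to the left.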

How the data were processed

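Transcript levels come from short-oligonucleotide arrays of 1 colour. The value deposited is a linear signal per probe set, which the authors had scaled so that the trimmed mean of each array was already alike, as a check of the values showed. For the 3 arrays with a sample number, GCOS is named per the submitters' processing notes. For the others the software was not given in the sources used, and depth has no meaning for arrays. The feeder array stands in a table of its own and was joined by probe set name, which also gives the gene through the platform annotation.

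Of 22690 probe sets, 64 controls were left out, 691 naming several genes and 1555 naming none were not used, and 20380 named 1 gene. Signals were scaled to a trimmed mean of 500 (2% from each end), floored at 64 and put on the log2 scale. Each of 12393 genes was read by the probe set with the highest mean over the 5 sorted arrays and the unsorted array, with no filter. The feeder array had no part in this choice, which by construction can favour genes below the sorted arrays. Averaging the probe sets of a gene instead gave 236 genes 2-fold above and 91 below, and the cause of that change was not tested. A gene was counted where the feeder value was at least 2-fold outside the range of all 5 sorted arrays. No test was made, since there is 1 feeder array. The scripts were tested on simulated data, with Python 3.11.15, pandas 2.3.3 and numpy 2.4.6.

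Named genes are the 15 with the largest margins on each side and a signal above 500, up to 4 per list, and Myl9, Actg2, Gas1 and Mpo. Other list members are named to account for a list. The arrays, the 35 gene lists and the rules were chosen with earlier results of these data known. The alternatives were other scaling (median, quantile), a floor of 16 and a higher one, a pseudocount of 32, a filter at 100, other treatment of probe sets, other folds, and leaving out arrays. Promoter windows came from RefSeq, build GRCm38.p6.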

Additional observations from a re-analysis of the deposited data

How the results depend on the processing

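The main counts were 229 genes at least 2-fold above all 5 sorted arrays and 148 below. Median scaling gave 119 and 294. A floor of 16 gave 231 below. Taking all probe sets as items gave 773 above, and averaging the probe sets of a gene gave 91 below. Counting any distance gave 2493 and 1611, and counting 4-fold gave 19 and 10. Leaving out 1 sorted array at a time gave 249 to 588 above and 158 to 331 below, the highest of each without Sca1+ replicate 2. Against only the sorted arrays without a sample number the counts were 1444 and 824, and against only those with one there were 223 below. Against only the Sca1+ arrays they were 383 and 269, and against only the Sca1- arrays 672 and 442. Fewer sorted arrays give a narrower range by construction, and for the other settings the cause was not tested. The remaining settings (quantile normalization, the higher floor, a pseudocount of 32 and the filter) kept both counts within 1.5 times.

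Of 140 named genes, 1 changed side: after quantile normalization the margin of Aldoa was 0.046, from -0.23. Others fell back inside the sorted range: 19 with the higher floor, 9 after median scaling, 9 after quantile normalization and 7 with the mean of the probe sets. By setting, 47 to 134 of the 140 margins moved by less than the spread of the sorted arrays, fewest against only the arrays without a sample number. The mean of the probe sets brought the margin of Rpl27a to -0.97 and that of Crim1 to 1.20. No paired analysis was possible because the feeder layer is 1 array and no result comes from a test. The number of arrays, the floor and a separate table for the feeder array limit every value, and a margin that touches the floor is a lower bound.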

Other observations

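Genes outside the lists, named after their values were seen, add other groups to the feeder layer's profile. Of 4 glypicans, surface heparan sulfate proteins that bind growth factors, 3 lay above all 5 sorted arrays and 2 of them by 2-fold. Gpc4 read 894 in the feeder layer, 218 and 209.7 in Sca1+ cells and 246, 125 and 112 in Sca1- cells, a margin of 1.86, and Gpc3 had a margin of 1.18. Of 19 LIM domain and calponin family genes, 10 lay above and 5 by 2-fold, a set that shares members with the contractile list. Fhl1, a LIM protein of muscle, read 2024 for the feeder cells, while the Sca1+ replicates had 181 and 605 and the Sca1- replicates 177, 333 and 263. Lims2, an adhesion adaptor, and Fhl2 had margins of 1.47 and 1.07. Rarb, a retinoic acid receptor, was at 401 against at most 79.6, and Crabp2, which carries retinoic acid, had a margin of 1.69, a lower bound.

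Among genes below the sorted cells, Hp, the haptoglobin gene of granulocytes and liver, read 77 on the feeder array against 9705 and 432 with Sca1+ cells and 41967, 10794 and 8494 with Sca1- cells. The feeder value was lowest, with a margin of -2.49. Acod1, which makes itaconate in activated macrophages, was under the floor at 5.0 on the feeder array against at least 216, a margin of -1.76 that is a lower bound. Of 45 ribosomal protein genes, a family also taken by name after values were seen, 21 lay below the sorted arrays, 4 by 2-fold, and 2 lay above. Their median difference was -0.46. Over all measured genes 13.0% lay below and 1.19% by 2-fold. The highest signal of the feeder array was under that of every sorted array, and its part in the values of such abundant transcripts was not tested.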
